A study of Mus musculus with 6 samples.

Results

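Sterol efflux genes and the genes of the liver X receptors (LXR) were examined in livers of CgA-KO mice, which lack the prohormone chromogranin A (CgA), and of WT mice. The group holds 10 genes chosen by symbol: the LXR receptors Nr1h3 and Nr1h2, the sterol transporters Abca1, Abcg1, Abcg5 and Abcg8, the HDL genes Scarb1, Lcat and Pltp, and the cholesterol-esterifying enzyme Soat2. All 10 were found once each among the 32212 rows of the gene count table, and all 10 were among the 13867 genes with enough counts to be tested. The 3 WT and 3 CgA-KO libraries came from poly(A)-selected liver RNA of male C57BL/6 mice of 2 yr on normal chow, one library per mouse. No group carried any other allele or treatment. CgA-KO is a lack of CgA in the whole animal, and the liver was taken in bulk, so fewer cells of a type and less RNA per cell cannot be told apart. The gene that encodes CgA, Chga, had 0 counts in all 6 libraries and could not check the labels of genotype.

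The LXR receptors are nuclear receptors that bind oxysterols, pair with a retinoid X receptor (RXR) and switch on genes that move cholesterol out of cells. ABCA1 passes cholesterol and phospholipid to lipid-poor ApoA-I to start HDL, and ABCG1 passes cholesterol on to formed HDL, with macrophages as a well-known site of both. ABCG5 and ABCG8 work as an obligate pair that secretes sterols from hepatocytes into bile. LCAT esterifies cholesterol on HDL in plasma, PLTP moves phospholipid between lipoproteins, and SR-BI, the product of Scarb1, takes up HDL cholesterol into hepatocytes. SOAT2 (ACAT2) stores cholesterol as esters inside hepatocytes.

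Libraries held between 10558616 and 31087453 counts, and a floor of 3 counts came to between 0.0951 and 0.269 CPM (scaled counts relative to library size). The members lay far above that floor, with 87 to 12544 counts per library. Between livers of the same genotype, counts varied far beyond sampling (chi-square over its degrees of freedom, 29.9 at the least and 190.3 at the most), so each liver was taken as its own sample. Levels are CPM with library sizes scaled by TMM (trimmed mean of M values), and errors are standard deviations over 3 livers. The genotypes were compared across all genes with the quasi-likelihood test of edgeR, and a gene was called at a Benjamini-Hochberg adjusted p-value under 0.05. Fold changes are log2 of CgA-KO over WT with their standard error (SE), and their 95% intervals are for the single gene.

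Abcg5 and Abcg8 are shown first as sequence, because they sit head to head and share an upstream stretch. Both lie on chromosome 17 of GRCm38, Abcg5 from 84658234 to 84683011 on the minus strand and Abcg8 from 84676302 to 84700333 on the plus strand. In the RefSeq promoter table of GRCm38.p6 the start site of Abcg5 is at 84683011 and the nearer start site of Abcg8 at 84683121, so 109 bases separate the divergent genes. A further start site of Abcg8 at 84676302 lies inside Abcg5, and the annotated gene bodies overlap by 6710 bases on opposite strands. The stretch between the start sites is given on the plus strand, chr17:84683012-84683120. Capitals mark the hexamer AGATAA (the type of site that GATA factors bind) on either strand.
Abcg5-Abcg8: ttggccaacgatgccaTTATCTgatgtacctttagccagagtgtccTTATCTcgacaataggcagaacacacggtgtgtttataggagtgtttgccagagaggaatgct
The hexamer was picked after the stretch had been read, so the shares given next do not test for an excess. It occurred 2 times in these 109 bases, while 0.186% of the 32851 promoters in the table held at least 2 matches in the 109 bases before the start site and 3.98% held at least 1.

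The element through which LXR with RXR binds DNA is a DR4, a direct repeat of AGGTCA spaced by 4 letters. It was searched on both strands in windows of 250 bases before to 50 after each start site. 7 of the 10 genes had 9 windows in the table, and Abcg1, Scarb1 and Soat2 had none. At no more than 2 mismatches over the 12 fixed letters, 0 of the 9 windows held a match, against 3.02% of all windows. So few windows cannot tell 0 from that share. At 3 mismatches, 2 of the 9 windows held a match, those of Abca1 and Lcat. That was near the 21.9% of all windows. The Abca1 match lay from 67 to 52 bases before the start site and is shown because Abca1 is the textbook LXR target. The stretch is given on the strand of the gene (minus), chr4:53159907-53160002, with the match in capitals. The match reads as the repeat on the opposite strand.
Abca1: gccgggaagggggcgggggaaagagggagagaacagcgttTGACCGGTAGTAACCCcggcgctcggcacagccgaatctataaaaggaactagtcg
No statement about LXR binding follows from these letters.

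Of the 10 genes, Abcg1 was higher and Abcg5 lower in CgA-KO livers, and the other 8 were not called. These 2 of 10 compare with 12.4% of all genes tested, with 8.60% called higher and 3.84% called lower. The genotypes were fully apart, with no overlap between libraries, for 4 of the 10 genes, Abcg1, Abcg5, Nr1h2 and Scarb1, against 33.6% of all genes tested. The median log2 fold change of the 10 was 0.03, and that of all genes tested was -0.01. The counts therefore lay close to the background, and the genes of the group had fold changes in both directions, 5 above and 5 below 0. Scaling by library size alone moved the median of all genes to 0.26 on the log2 scale and turned Nr1h3 and Lcat to the upper side, both uncalled.

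**Figure D1:**
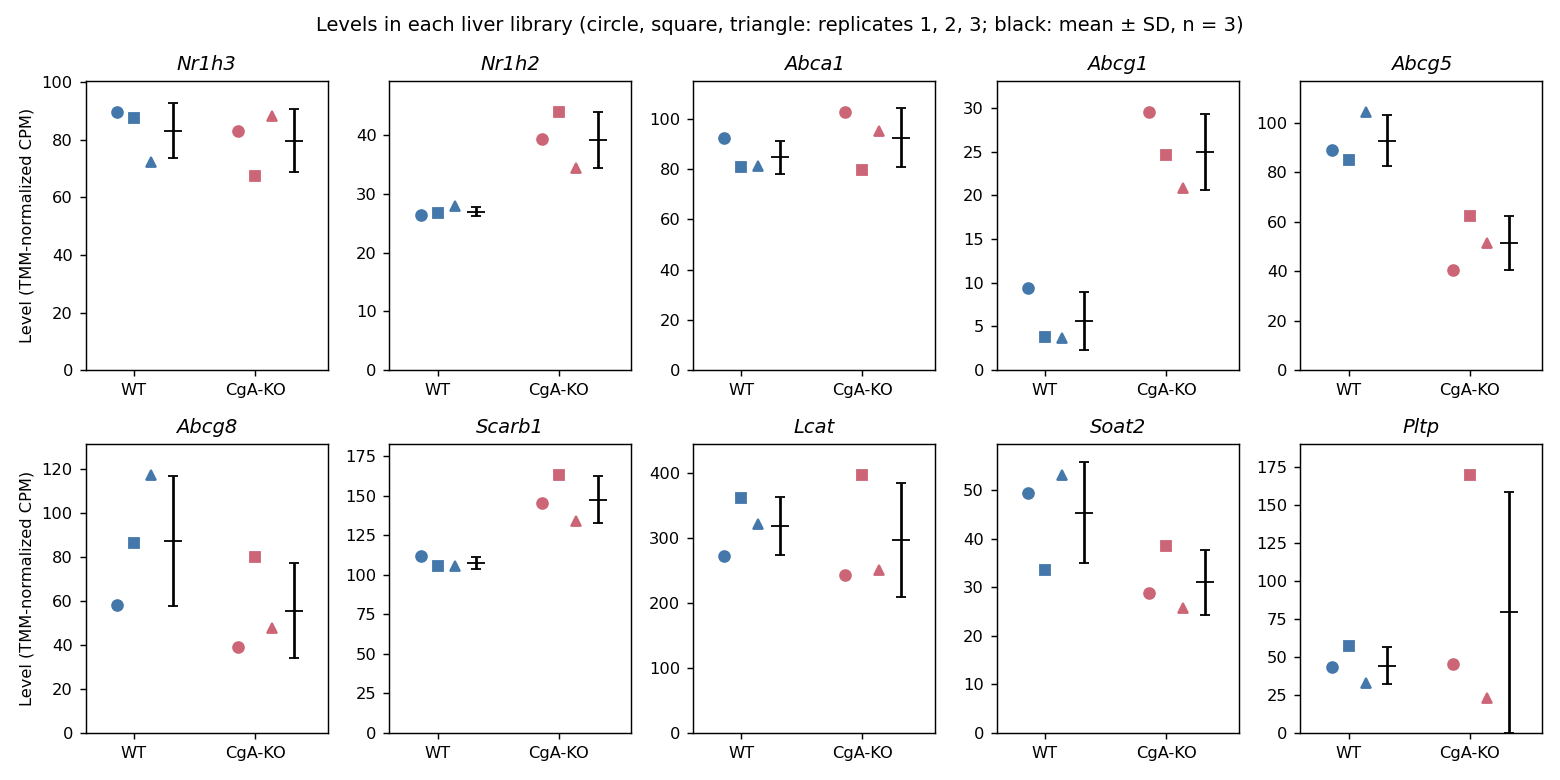
Level of each of the 10 genes in TMM-normalized CPM (vertical axes, from 0) in the 3 WT and 3 CgA-KO liver libraries, with points for single libraries and black bars for mean ± SD (n = 3). The genotypes are apart for Abcg1, Abcg5, Nr1h2 and Scarb1, and CgA-KO replicate 2 stands alone in Pltp at 169.9 CPM.

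Abcg1, on chromosome 17 of GRCm38 from 31057675 to 31117988, showed the largest change of the 10. Its counts were 105, 88 and 87 in WT replicates 1, 2 and 3 and 636, 775 and 466 in CgA-KO replicates 1, 2 and 3. As levels these were 9.40, 3.74 and 3.68 CPM in WT and 29.5, 24.6 and 20.9 CPM in CgA-KO livers. Every CgA-KO liver lay above every WT liver, and WT replicate 1 was the highest of the WT livers. The means were 5.61 ± 3.29 and 24.996 ± 4.33 CPM, a rise of 4.56-fold or 2.19 on the log2 scale (SE 0.37, 95% interval 1.35 to 3.03, edgeR adjusted p = 0.00938). The call was kept in all 15 alternative analyses, and without WT replicate 1 the log2 fold change was 2.78.

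Most listed marker genes of liver macrophages were likewise higher in CgA-KO livers. On a list of 12 Kupffer cell markers, 10 were called higher and 0 lower in CgA-KO, with none at 0 in any library. Of all genes tested, 8.60% were called higher and 3.84% lower. Summed, they stood at 351, 160 and 144 CPM in WT livers and 2083, 2007 and 1465 CPM in CgA-KO livers (replicates 1, 2 and 3), so WT replicate 1 was the highest WT liver here too. Of 10 markers of monocytes and lipid-associated macrophages, 6 were called higher. Their sum was 193.6, 149 and 78.7 CPM in WT replicates 1, 2 and 3. In CgA-KO replicates 1, 2 and 3 it was 428, 442 and 642 CPM. Within the CgA-KO livers that order was the reverse of the order of Abcg1. The Kupffer cell sum had the same order of replicates as Abcg1 within each genotype. Of the 9 hepatocyte markers found in the table, 0 were called (1 had an unadjusted p-value under 0.05), and their sums overlapped, from 53653 to 87646 CPM in WT and from 45230 to 75902 CPM in CgA-KO. Stellate cell markers were also higher in part (5 of 8 called), as were 3 of 7 lymphocyte markers, while sinusoidal endothelium had 1 of 8 called higher and 1 lower, and the 5 bile duct markers had 0 called (1 had an unadjusted p-value under 0.05). WT replicate 1 was also the highest WT liver in the summed monocyte, sinusoidal endothelium, bile duct and lymphocyte markers. That rank was therefore not particular to Kupffer cell markers. For the hepatocyte and stellate cell sums, WT replicate 1 was not the highest. The part of macrophage content in the level of Abcg1 was not tested.

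Across the 6 libraries, the 3 genes whose log2 CPM followed Abcg1 most closely were Tbc1d9 (Pearson r = 0.9995), Parvb (r = 0.9991) and Lcp2 (r = 0.9991), the last an adaptor protein of blood cells. Their log2 fold changes were 2.32, 2.01 and 2.88. The points share genotype and library, so these values only describe the 6 libraries.

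**Figure D2:**
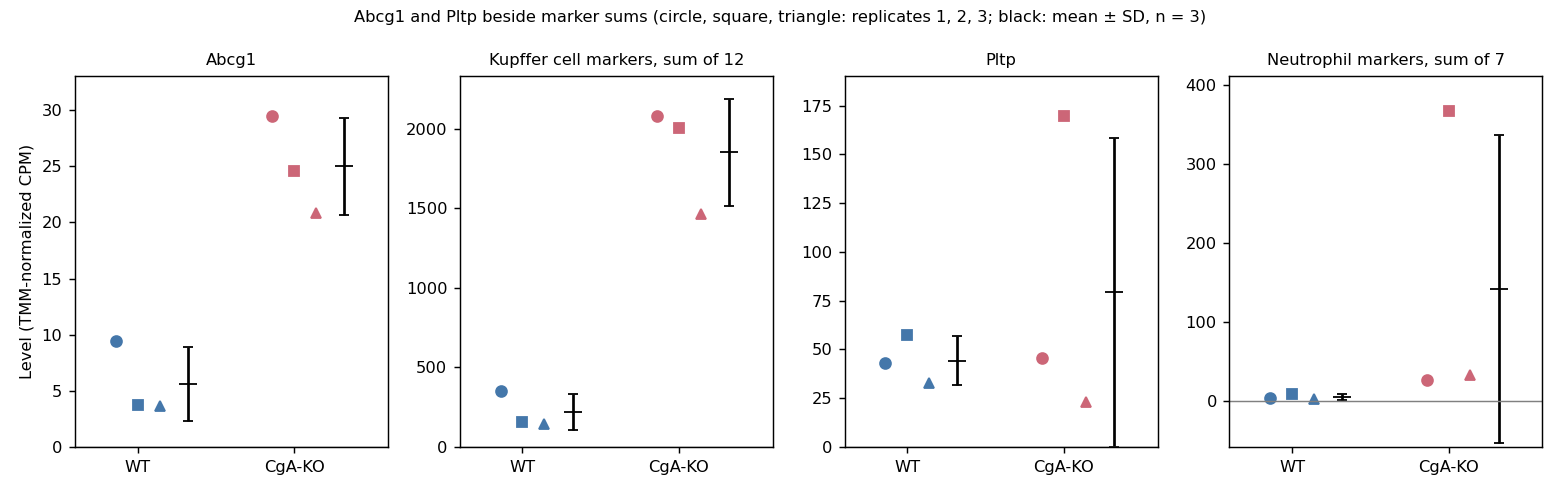
Abcg1 and Pltp beside the summed level of 12 Kupffer cell markers and of 7 neutrophil markers, in TMM-normalized CPM (vertical axes), for each WT and CgA-KO liver library, with mean ± SD in black (n = 3). Abcg1 and the Kupffer cell sum are each higher in all 3 CgA-KO livers. CgA-KO replicate 2 is the highest library for both Pltp and the neutrophil sum. CgA-KO replicate 3 is the lowest for Pltp and lies above all WT libraries for the neutrophil sum.

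Abca1, the partner of Abcg1 in efflux to HDL, was not called. It lies on chromosome 4 of GRCm38 from 53030787 to 53159895. Its levels were 92.3, 80.7 and 81.1 CPM in WT replicates 1, 2 and 3 and 103, 79.7 and 95.2 CPM in CgA-KO replicates 1, 2 and 3. The genotypes overlapped, with CgA-KO replicate 2 the lowest of all 6. The means were 84.7 ± 6.62 and 92.5 ± 11.7 CPM, a log2 fold change of 0.13 (SE 0.18, 95% interval -0.29 to 0.55, edgeR adjusted p = 0.695). Within each library, the log2 ratio of Abca1 over Abcg1 counts was 3.29, 4.42 and 4.45 in WT and 1.80, 1.70 and 2.19 in CgA-KO. All CgA-KO livers lay below all WT livers, by 2.16 on the log2 scale between the means (exact two-sided permutation test, p = 0.1, the lowest p that 6 livers in these groups can give, adjusted to 0.15 over 3 pairs of genes). A ratio within a library does not depend on how libraries are scaled. A test of this size cannot pass 0.05, so an unequal change of Abca1 and Abcg1 is described here and not shown.

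Both genes of the biliary sterol transporter had lower mean levels in CgA-KO livers, and Abcg5 was called. Abcg5 was at 88.9, 85.0 and 104 CPM in WT replicates 1, 2 and 3 and at 40.5, 62.5 and 51.6 CPM in CgA-KO replicates 1, 2 and 3. Every CgA-KO liver lay below every WT liver. The means were 92.8 ± 10.2 and 51.5 ± 10.99 CPM, a fall of 1.80-fold (log2 fold change -0.85, SE 0.21, 95% interval -1.32 to -0.37, edgeR adjusted p = 0.0329). The call was lost without WT replicate 2 (adjusted p = 0.0532), WT replicate 3 (0.141), CgA-KO replicate 1 (0.138) or CgA-KO replicate 3 (0.0917), and with library size alone (log2 fold change -0.59, edgeR adjusted p = 0.141). The direction stayed negative throughout.

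Abcg8 was at 58.2, 86.4 and 117 CPM in WT replicates 1, 2 and 3 and at 39.0, 80.0 and 47.6 CPM in CgA-KO replicates 1, 2 and 3. The genotypes overlapped, since CgA-KO replicate 2 was above WT replicate 1. The means were 87.3 ± 29.6 and 55.6 ± 21.6 CPM, a log2 fold change of -0.65 (SE 0.33, 95% interval -1.40 to 0.09, edgeR adjusted p = 0.227). Within a library, the log2 ratio of Abcg5 over Abcg8 was 0.61, -0.02 and -0.17 in WT and 0.05, -0.36 and 0.11 in CgA-KO. The ratio therefore overlapped between the genotypes, with a difference of -0.20 between means (exact two-sided permutation test, p = 0.6, adjusted 0.6), which turned to 0.033 without WT replicate 1. With 3 livers against 3 this test cannot go below 0.1, so it does not tell whether the 2 half-transporters changed alike. Reads from bases that are exonic in both genes could be shared between them if counting did not use strand, which is not stated. The overlap given above is that of whole gene bodies with introns, and the overlap of exons was not measured.

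The 3 genes most like Abcg5 over the 6 libraries were Slc6a9, a glycine transporter (Pearson r = 0.999), the carboxylesterase gene Ces1b (r = 0.997) and Ankrd9 (r = 0.990). Their log2 fold changes were -1.16, -0.77 and -1.80. Ces1b belongs to a family of close paralogs, among which reads can be split.

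**Figure D3:**
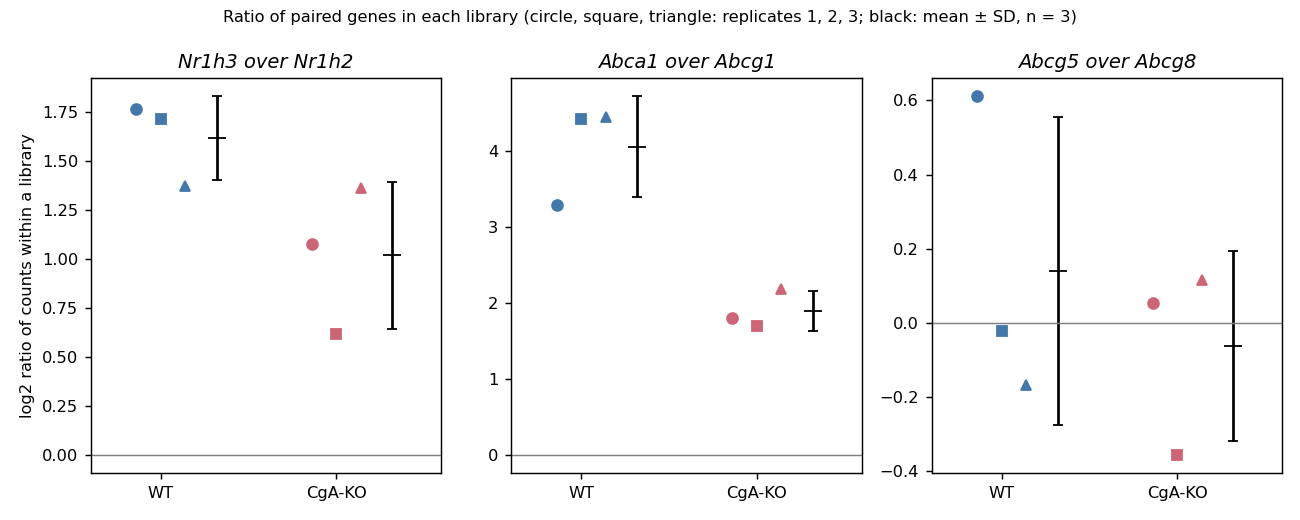
Log2 ratio of the counts of 2 genes within each library (vertical axes) for Nr1h3 over Nr1h2, Abca1 over Abcg1 and Abcg5 over Abcg8, with points for the 3 WT and 3 CgA-KO libraries and mean ± SD in black (n = 3). All CgA-KO points lie below all WT points in the first and second panels, narrowly so in the first, while they overlap in the third.

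The receptors themselves showed no called change. Nr1h3 encodes LXRα, the main LXR of hepatocytes, on chromosome 2 (91184061 to 91202834, GRCm38). Levels were 89.7, 87.6 and 72.3 CPM in WT replicates 1, 2 and 3 and 83.1, 67.3 and 88.3 CPM in CgA-KO replicates 1, 2 and 3. The genotypes overlapped, with means of 83.2 ± 9.46 and 79.6 ± 10.9 CPM and a log2 fold change of -0.06 (SE 0.19, 95% interval -0.50 to 0.37, edgeR adjusted p = 0.863). That interval runs from 0.708 to 1.29 as a ratio of CgA-KO over WT.

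Nr1h2 encodes LXRβ, the more widely expressed LXR, on chromosome 7 (44549616 to 44553951). Levels were 26.3, 26.7 and 27.9 CPM in WT replicates 1, 2 and 3 and 39.3, 43.9 and 34.4 CPM in CgA-KO replicates 1, 2 and 3. Every CgA-KO liver lay above every WT liver, and the WT livers were close together. The means were 27.0 ± 0.831 and 39.2 ± 4.76 CPM, a log2 fold change of 0.54 (SE 0.16, 95% interval 0.17 to 0.91), which missed the threshold over all genes (edgeR adjusted p = 0.0631). With upper-quartile factors it passed (log2 fold change 0.60, edgeR adjusted p = 0.0444), and with library size alone it did as well (0.81, adjusted p = 0.0383). The log2 ratio of Nr1h3 over Nr1h2 within a library was 1.77, 1.71 and 1.37 in WT and 1.08, 0.62 and 1.36 in CgA-KO. The groups touched without overlap, and the mean ratio was lower in CgA-KO by 0.60 on the log2 scale (exact two-sided permutation test, p = 0.1, the smallest possible, adjusted 0.15).

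Scarb1 (chromosome 5, 125277087 to 125341094, GRCm38) was at 112, 106 and 105 CPM in WT replicates 1, 2 and 3 and at 145, 163 and 134 CPM in CgA-KO replicates 1, 2 and 3. All CgA-KO livers lay above all WT livers. The means were 108 ± 3.79 and 147 ± 14.7 CPM, a log2 fold change of 0.45 (SE 0.18, 95% interval 0.04 to 0.87), yet the gene was not called (edgeR adjusted p = 0.139). Pdzk1, whose product holds SR-BI at the hepatocyte surface, was called lower, from 46.1 ± 2.56 to 23.0 ± 4.29 CPM (log2 fold change -1.003, SE 0.18, edgeR adjusted p = 0.0125).

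Lcat (chromosome 8, 105939551 to 105943382) was at 273, 361 and 322 CPM in WT replicates 1, 2 and 3 and at 243, 398 and 251 CPM in CgA-KO replicates 1, 2 and 3. CgA-KO replicate 2 was the highest of all 6 livers and the other CgA-KO livers were the lowest. The means of 319 ± 44.4 and 297 ± 87.3 CPM overlapped, with a log2 fold change of -0.10 (SE 0.26, 95% interval -0.69 to 0.49, edgeR adjusted p = 0.837). An antisense gene, Gm16156, covers the whole of Lcat in the annotation and was not among the genes tested.

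Pltp (chromosome 2, 164839518 to 164857711) was set apart by 1 library. It was at 43.1, 57.2 and 32.6 CPM in WT replicates 1, 2 and 3 and at 45.4, 169.9 and 22.8 CPM in CgA-KO replicates 1, 2 and 3, where CgA-KO replicate 2 held 5358 counts. CgA-KO replicate 2 was the highest of the 6 and CgA-KO replicate 3 the lowest. The means were 44.3 ± 12.4 and 79.4 ± 79.2 CPM, a log2 fold change of 0.84 (SE 0.62, 95% interval -0.55 to 2.24, edgeR adjusted p = 0.404). Without CgA-KO replicate 2 the log2 fold change was -0.34 (adjusted p = 0.583). The same library stood out in 7 neutrophil markers, which summed to 368 CPM there, to 27.2 and 32.8 CPM in CgA-KO replicates 1 and 3 and to between 2.41 and 9.83 CPM in WT. 4 of these markers (Ngp, Mpo, Camp and Elane) were at 0 in at least 1 library, and Mpo was at 0 in all WT libraries. CgA-KO replicate 2 was also the highest of the 6 livers for the summed bile duct (73.4 CPM), stellate cell (503 CPM) and lymphocyte (77.3 CPM) markers. CgA-KO replicate 3, the lowest in Pltp, had a neutrophil sum above that of every WT liver. Whether the cells that carry any of these markers bear on Pltp was not tested. Pltp overlaps Ctsa by 1515 bases on the opposite strand, and Ctsa had a log2 fold change of 0.41 (SE 0.21, edgeR adjusted p = 0.241).

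Soat2 (chromosome 15, 102150526 to 102163469, GRCm38) was at 49.4, 33.5 and 53.2 CPM in WT replicates 1, 2 and 3 and at 28.9, 38.6 and 25.8 CPM in CgA-KO replicates 1, 2 and 3. The groups overlapped only because CgA-KO replicate 2 exceeded WT replicate 2. The means were 45.4 ± 10.4 and 31.1 ± 6.69 CPM, a log2 fold change of -0.54 (SE 0.23, 95% interval -1.07 to -0.02, edgeR adjusted p = 0.161), which was not called. Its paralog Soat1 (ACAT1), the form known from macrophages, was called higher, from 4.72 ± 2.89 to 23.5 ± 3.38 CPM (log2 fold change 2.35, SE 0.38, edgeR adjusted p = 0.00809). The difference between the changes of Soat1 and Soat2 was not tested.

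**Figure D4:**
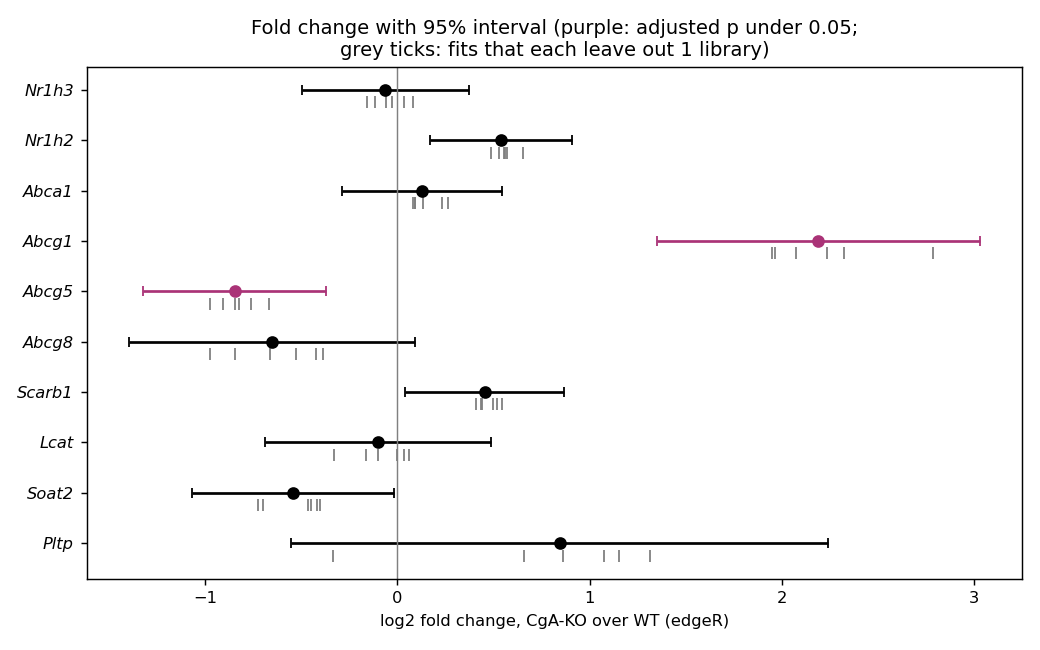
Log2 fold change of CgA-KO over WT from edgeR (horizontal axis) for each of the 10 genes, with 95% intervals, and grey ticks for the 6 fits that each left out 1 library. Abcg1 (2.19) and Abcg5 (-0.85), in purple, had an adjusted p-value under 0.05, and for Pltp 1 tick lies below 0.

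Levels of different genes were compared only per kilobase of annotated exon, as CPM per kilobase. In WT livers Lcat was the highest at 237 ± 33.1, followed by Abcg5 at 34.2 ± 3.77, Nr1h3 at 33.1 ± 3.76, Abcg8 at 23.3 ± 7.89, Soat2 at 20.5 ± 4.71, Pltp at 17.3 ± 4.83 and Scarb1 at 12.7 ± 0.446 CPM per kilobase. Abca1 at 8.17 ± 0.639, Nr1h2 at 8.04 ± 0.248 and Abcg1 at 0.769 ± 0.450 CPM per kilobase closed the order. Neighbours from Abcg5 to Scarb1 overlapped over the 3 WT livers, as did Abca1 with Nr1h2, whereas Lcat stood above Abcg5, Scarb1 above Abca1, and Nr1h2 above Abcg1 without overlap. In CgA-KO livers Lcat, at 221 ± 65.0 CPM per kilobase, was again the highest and Abcg1, at 3.43 ± 0.594, again the lowest. Most of this order depends on the length used. With the longest annotated transcript in place of all exons, 8 of the 10 ranks changed in WT and 7 in CgA-KO. Scarb1 would then be at 34.8 CPM per kilobase in WT, Nr1h2 at 13.5, above Abca1 at 8.25, and Nr1h3 at 41.9, above Abcg5 at 39.5.

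LXR works with RXR and with corepressors and coactivators. A list of 12 genes held these together with other nuclear receptors of sterol and bile acid control (Nr0b2, Nr1h4, Nr5a2 and Hnf4a). In edgeR's test 0 of the 12 were called, against 12.4% of all genes tested, and so few genes cannot tell 0 from that share. Of the 12, 1 had an unadjusted p-value under 0.05, and DESeq2 and limma-voom each called 1. Their median log2 fold change was 0.00. The largest shift was that of Nr1h4, the bile acid receptor FXR, from 183 ± 21.6 to 110.3 ± 20.3 CPM (log2 fold change -0.73, SE 0.21, edgeR adjusted p = 0.0577). Rxra, an RXR gene of the liver named after its values were seen, was at 338 ± 25.9 and 288 ± 16.6 CPM (log2 fold change -0.23). The coactivator gene Ncoa3 had a log2 fold change of 0.34 and was not called.

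Other established LXR target genes went both ways. Of 15, 5 were called higher and 3 lower, against 8.60% and 3.84% of all genes tested. Their median log2 fold change was -0.24. The higher ones were Cd5l, a secreted macrophage protein, at 30.5 ± 7.51 and 368 ± 193.7 CPM (log2 fold change 3.59), Arl4c, a small GTPase gene, at 2.02 ± 0.356 and 18.4 ± 13.6 CPM (3.20), Lpl (2.56), and, named after their values were seen, Mylip (1.06) and Smpdl3a (1.04). Mylip encodes the ubiquitin ligase that degrades the LDL receptor. Cd5l is also on the list of Kupffer cell markers, so it is no separate evidence beside that list.

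The 3 lower LXR targets belong to fat and bile acid synthesis. Srebf1, which encodes the lipogenic factor SREBP1, fell from 122 ± 39.4 to 36.8 ± 11.4 CPM (log2 fold change -1.73, SE 0.32, edgeR adjusted p = 0.0128). Fasn, the fatty acid synthase gene, fell from 217 ± 45.8 to 64.8 ± 10.7 CPM (log2 fold change -1.74). Cyp7a1, the rate-limiting enzyme gene of bile acid synthesis, fell from 396 ± 39.97 to 129 ± 56.2 CPM (log2 fold change -1.63). The count of 8 called genes was 5 without WT replicate 2 and 3 without WT replicate 3.

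Among 20 further genes of HDL and cholesterol handling, 19 were tested, with a median log2 fold change of -0.20. Of these, 3 were called higher and 2 lower, against 8.60% and 3.84% of all genes tested. Besides Soat1, the higher ones were Npc2, a lysosomal cholesterol carrier (log2 fold change 0.83, edgeR adjusted p = 0.0307), and Gramd1b, a sterol transporter between plasma membrane and ER (1.82, adjusted p = 0.0477). Besides Pdzk1, endothelial lipase (Lipg) was lower, from 30.3 ± 10.4 to 12.1 ± 3.85 CPM (log2 fold change -1.32, edgeR adjusted p = 0.0251). The count of 5 fell to 1 without WT replicate 3 or CgA-KO replicate 1, to 2 without CgA-KO replicate 2, to 3 without WT replicate 2 or CgA-KO replicate 3, and to 2 with library size alone.

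Oxysterols, the ligands of LXR, are made and cleared by enzymes of which 5 of 7 passed the filter on low counts. Cyp7b1, which clears oxysterols toward bile acids, was at 216 ± 24.7 and 116 ± 33.3 CPM (log2 fold change -0.90, edgeR adjusted p = 0.0498), a call at the threshold that most alternatives did not keep. Cyp46a1, which makes 24-hydroxycholesterol, was at 12.3 ± 6.07 and 3.69 ± 2.33 CPM (log2 fold change -1.73, edgeR adjusted p = 0.0758) and was not called. Hsd3b7 (0.08) and Cyp39a1 (-0.41) were not called either.

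Genes of the opposing arm of sterol control, the targets of SREBP2 that raise cholesterol synthesis and uptake, differed from the 10 genes in direction and number. All 10 on that list were called lower in CgA-KO, against 3.84% of all genes tested, with a median log2 fold change of -1.90. Among them was Insig1 (-1.88), which encodes a protein that holds SREBP2 in the ER. The study singled out genes of both lists, Lpl among them, in these same livers, so neither this list nor that of the LXR targets is independent evidence of direction.

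**Figure D5:**
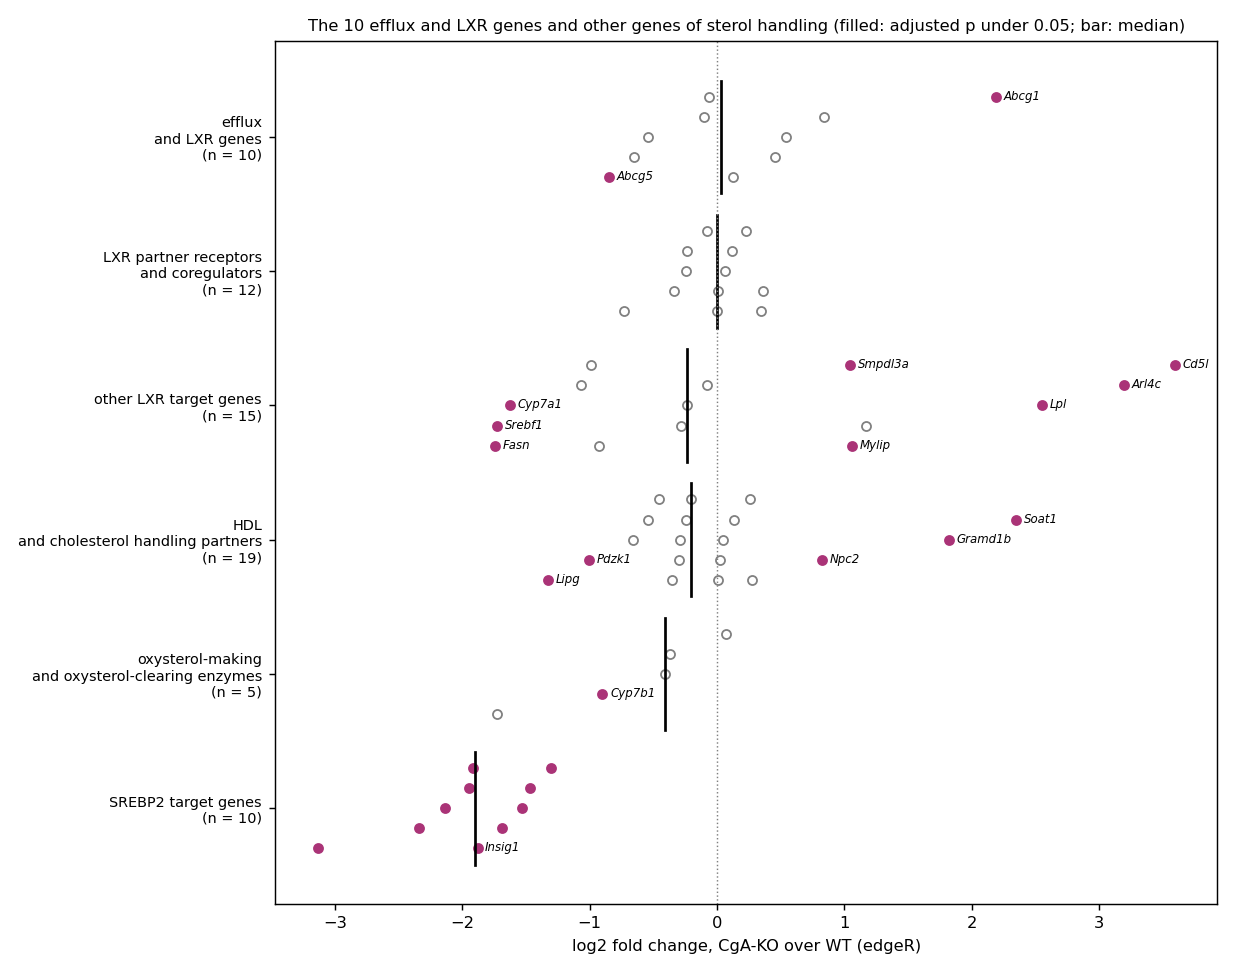
Log2 fold change of CgA-KO over WT from edgeR (horizontal axis) for the 10 efflux and LXR genes and for 5 lists of related genes (rows, with the number tested), where filled points had an adjusted p-value under 0.05 and the black bar is the median of the list. Genes named in the text are labelled where called. The SREBP2 targets all lie to the left of 0, while the efflux and LXR genes and the other LXR targets lie on both sides.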

How the data were processed

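The authors quantified paired-end reads of 6 liver libraries with Salmon 1.4.0 against the GRCm38 transcriptome, per the methods and the labels, and deposited one table of counts per gene symbol. How transcripts were summed to genes and rounded, and whether strand was used, is not given in the sources used here. Nor are feeding state and hour of collection. 0 columns lacked a sample.

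Tests on the counts ran in edgeR 4.0.16 under R 4.3.3 (filterByExpr with a minimum count of 10, TMM, robust quasi-likelihood fits, two-sided test of genotype, Benjamini-Hochberg over 13867 genes). log2 CPM used a prior count of 2. The SE was taken from the log2 fold change and its F statistic. Ratios within a library used a pseudocount of 0.5. Coordinates and exon lengths are those of GENCODE M21 (GRCm38), and promoters those of RefSeq (GRCm38.p6).

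Named genes are the 10 members, at most 3 per direction with the smallest p on each list, and the 3 genes most correlated with each called member. Members and lists were chosen with earlier results of these data known. Alternatives were library size alone, upper-quartile and DESeq2 factors, 2 other filters, DESeq2 1.42.0, limma-voom (limma 3.58.1), a replicate block, a threshold of 0.01, each library left out, another pseudocount, another length and other mismatch limits. The fits were tested on simulated data. The hepatocyte marker Tf had no row of that symbol. Some genes that the rule names are not reported here.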

Additional observations from a re-analysis of the deposited data

How the results depend on the processing

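Abcg1 was called in all 15 alternatives, with a log2 fold change from 1.95 to 2.78 and an adjusted p from 8.50e-07 to 0.0460. Abca1, Abcg8, Scarb1 and Soat2 kept their direction and stayed uncalled throughout. The number of the 10 genes called higher became 2 with library size alone and with upper-quartile factors. The number called lower became 0 with library size alone, the replicate block and a threshold of 0.01, and ran from 0 to 1 with 1 library left out. Nr1h2 passed the threshold in those 2 scalings only. The log2 fold change turned for Nr1h3 with library size alone (0.20), without WT replicate 1 (0.03) and without CgA-KO replicate 2 (0.082; -0.16 to 0.082 over the 6 such fits), for Lcat with library size alone (0.19), without CgA-KO replicate 1 (0.059) and, leaving out CgA-KO replicate 3, 0.04 (-0.33 to 0.059), and for Pltp without CgA-KO replicate 2 (-0.34; -0.34 to 1.31), all uncalled. With 1 library left out, the difference between genotypes in the log2 ratio of Abcg5 over Abcg8 ran from -0.36 to 0.033.

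Over all genes, 1726 were called, 360 at a threshold of 0.01, 2579 with DESeq2 and 394 (without WT replicate 3) to 2126 (without WT replicate 1) with 1 library left out. Leaving out WT replicate 2 gave 841, CgA-KO replicate 1 gave 744 and CgA-KO replicate 2 gave 976. Library size alone raised the share of higher calls from 69.1% to 86.6%. LXR partners had 1 call with DESeq2 and 1 with limma-voom. Other LXR targets had 4 at a threshold of 0.01, 12 at most over the alternatives and 3 to 8 with 1 library left out. HDL and cholesterol partners had 2 with library size alone, 1 at 0.01 and 1 to 4 with 1 library left out. Oxysterol enzymes had 0 with library size alone, upper-quartile factors, DESeq2 factors, both other filters and 0.01, 2 with DESeq2, and 0 to 1 with 1 library left out. The causes were not tested. Of the promoters, 2 members held a DR4 at 3 mismatches and 0 at 1. The longest transcript in place of all exons moved 8 of 20 levels per kilobase.

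The labels do not say whether the replicate numbers mark pairs or batches. Deviations of same-numbered livers from their group means correlated at 0.20, 0.01 and -0.07 for replicates 1, 2 and 3. Not every liver correlated best with its own number, but these few values cannot exclude a pairing. With the replicate block 1498 genes were called in all, Abcg1 among them, and Abcg5 had an adjusted p of 0.0509. With 3 livers per genotype, a fit that left out 1 library rested on 2 in one arm.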
